A study of Mus musculus with 12 samples.

Results

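Expression of Socs2 and of 5 genes around it in the STAT5 branch of cytokine signalling was described in a line of mouse neural progenitors, C17.2, with and without the thyroid hormone T3. The 6 genes were taken by symbol from the deposited table and are 6 of its 12774 gene symbols: the inhibitors Socs2, Socs3 and Cish and the transcription factors Stat5a, Stat5b and Stat3. The study asked which genes respond to T3 over time in 2 stably transfected lines, each carrying 1 tagged thyroid hormone receptor. Its 12 libraries were made by digital gene expression, which counts a short tag per transcript, and hold 1 library for each line, treatment and time.

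The T3 libraries came from C17.2b cells, which stably express tagged thyroid hormone receptor beta, and from C17.2a cells, which stably express the tagged alpha receptor, each with 1e-07 M T3 for 6, 12 or 24 h. The untreated libraries came from the same lines at the same times without T3. All 12 cultures had spent 24 h in medium without serum before treatment, having been grown in fetal bovine serum, and all of them carry a transfected receptor, so no library shows the parent line. The labels do not say whether a line is 1 clone, which promoter drives the receptor, or whether libraries came from separate cultures. Each group is a single library. Repeats were therefore taken from the 6 pairs that match T3 with untreated cells by line and time, and p-values measure the spread among these pairs, which holds real differences between lines and times.

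Cytokine and growth hormone receptors activate Janus kinases, which phosphorylate STAT proteins. These pair, enter the nucleus and bind DNA at palindromes of the form TTCNNNGAA. STAT5A and STAT5B are close paralogs that carry signals of growth hormone, prolactin and several interleukins, while STAT3 carries those of the LIF and IL-6 family and is known to favour astrocyte formation from neural progenitors. SOCS2, SOCS3 and CIS, the product of Cish, are induced by STATs and close the loop: SOCS2 and CIS mainly restrain growth hormone and STAT5 signalling, and SOCS3 restrains signalling through the shared IL-6 receptor chain. T3 acts through nuclear receptors that bind DNA at repeats of the half-site AGGTCA.

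Values are in RPM, tag counts brought to the same total in each library, a unit inferred from the column sums. The smallest step between low values implies 7.14e+06 to 1.91e+07 tags per library, so 3 tags correspond to 0.157 to 0.42 RPM, a floor for counting error alone. The known T3 target Hr, a nuclear corepressor, was higher with T3 by 3.55 on the log2(RPM + 1) scale (adjusted p = 1.69e-06 in limma). Klf9, also a known T3 target, was higher by 1.15 (adjusted p = 0.0322, limma). By line Klf9 differed by 1.56 in C17.2b (adjusted p = 0.047) and by 0.75 in C17.2a (adjusted p = 0.311) in limma. Its difference was -0.40 in the C17.2a 24 h pair, against 1.18 to 1.75 in the other pairs. Of 10 neural progenitor markers, 9 were in the table and 8 of these reached 1 RPM in every library, with a summed level of 1390 to 3100 RPM under T3 and 2340 to 5810 RPM in untreated cells. Fibroblast markers were also high, 3 of the 4 in the table reaching 1 RPM in every library, and summed to 1290 to 7310 RPM under T3 and 1390 to 4880 RPM in untreated cells. Oligodendrocyte markers, of which 2 of 4 reached 1 RPM in every library, summed to 234 to 948 RPM under T3 and 310 to 863 RPM in untreated cells, neuron markers (2 of 5) to 63.4 to 623 RPM under T3 and 99.6 to 369 RPM in untreated cells, and astrocyte markers (1 of 3) to 36.7 to 56.1 RPM under T3 and 37.9 to 60.5 RPM in untreated cells. The 1 leukocyte marker in the table was at most at 0.18 RPM under T3 and 0.42 RPM in untreated cells. In the progenitor sum, Vim alone had 1112.07 to 2618.82 RPM under T3 and 1928.29 to 4940.95 RPM in untreated cells. In the neuron sum, Tubb3 alone had 44.48 to 576.39 RPM under T3 and 69.89 to 312.11 RPM in untreated cells. In the astrocyte sum, S100b alone had 36.14 to 54.47 RPM under T3 and 36.34 to 59.28 RPM in untreated cells. The part of these markers in the results was not tested, and in RNA from whole cultures fewer cells of a type and less RNA per cell cannot be told apart. The C17.2a 24 h pair stood apart: its T3 and untreated libraries had a rank correlation across genes of 0.910, against 0.966 to 0.980 in the other 5 pairs, and the main results of the 6 genes that change without it are given both ways.

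RefSeq promoter windows, running from 250 bases before to 50 bases after a gene's start on mouse build GRCm38.p6, were matched for 5 of the 6 genes (not Socs2), 7 windows in all. They were searched on both strands for the STAT palindrome TTCNNNGAA and for the receptor half-site AGGTCA. The windows that hold a match are printed because they show where the letters bound by each kind of factor occur beside these genes, with the match in capitals. Each is a stretch of the window, given 5′ to 3′ on the gene's own strand.
Stat5a first window: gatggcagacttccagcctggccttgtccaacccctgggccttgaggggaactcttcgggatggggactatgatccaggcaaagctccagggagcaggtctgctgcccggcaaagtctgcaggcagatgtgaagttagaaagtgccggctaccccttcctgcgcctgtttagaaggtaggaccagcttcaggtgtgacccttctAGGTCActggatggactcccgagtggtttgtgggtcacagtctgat
Stat5a second window: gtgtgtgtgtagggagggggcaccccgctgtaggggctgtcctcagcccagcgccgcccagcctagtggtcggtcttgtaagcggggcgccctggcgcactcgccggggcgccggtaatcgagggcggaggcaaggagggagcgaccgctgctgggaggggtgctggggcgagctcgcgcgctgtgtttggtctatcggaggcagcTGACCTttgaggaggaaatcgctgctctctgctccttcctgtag
Stat5b window: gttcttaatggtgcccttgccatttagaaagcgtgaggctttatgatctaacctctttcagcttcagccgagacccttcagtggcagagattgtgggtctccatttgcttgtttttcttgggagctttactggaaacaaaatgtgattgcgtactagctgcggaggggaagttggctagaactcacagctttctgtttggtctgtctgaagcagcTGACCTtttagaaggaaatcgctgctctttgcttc
Cish window: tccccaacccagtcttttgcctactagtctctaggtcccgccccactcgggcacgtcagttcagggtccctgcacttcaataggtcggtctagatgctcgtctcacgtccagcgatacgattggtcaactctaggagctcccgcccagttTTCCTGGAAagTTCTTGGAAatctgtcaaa
Socs3 window: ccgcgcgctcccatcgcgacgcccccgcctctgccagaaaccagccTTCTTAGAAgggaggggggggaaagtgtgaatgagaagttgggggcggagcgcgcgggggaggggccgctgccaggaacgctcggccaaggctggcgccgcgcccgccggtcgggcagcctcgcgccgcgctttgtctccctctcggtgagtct
The first Stat5a window printed is chr11:100859406-100859655 (plus strand), the second is chr11:100860234-100860483 (plus strand), that of Stat5b is chr11:100822571-100822820 (minus strand), that of Cish is chr9:107296509-107296688 (plus strand) and that of Socs3 is chr11:117969367-117969566 (minus strand). Both Stat5a windows hold 1 half-site, at positions -46 and -44 from the start, and 1 of the Stat5b windows holds it at -35. In the second Stat5a window and in that of Stat5b the half-site lies on the opposite strand and is read as TGACCT. Cish holds the STAT palindrome at positions 1 and 12 counted from its start, and Socs3 holds it at -154. Among 32851 RefSeq windows of the same length, 16.3% hold the half-site and 8.3% the palindrome, while direct repeats of the half-site with 4 bases between the copies occur in 0.0152% and in 0 of the 7 windows here. A match describes letters only and shows neither binding nor a cause.

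Socs2, the growth hormone signalling inhibitor, rose with T3 in both lines at every time. With T3 for 6, 12 and 24 h, C17.2b cells had 56.82, 95.73 and 147.04 RPM of Socs2, and C17.2a cells had 63.71, 82.88 and 140.75 RPM. Untreated C17.2b cells had 5.66, 5.29 and 16.41 RPM at these times, and untreated C17.2a cells had 7.04, 7.11 and 24.50 RPM. The groups did not overlap, the lowest T3 library lying above the highest untreated one, a pattern found in 1.47% of the 10577 genes tested. The ratio of RPM, T3 over untreated, was 10.0, 18.1 and 8.96 in C17.2b and 9.05, 11.7 and 5.74 in C17.2a at 6, 12 and 24 h. Over the 6 pairs the difference on the log2(RPM + 1) scale, which understates changes of low genes, was 3.17 ± 0.17 (SE, n = 6 pairs; adjusted p = 2.95e-05, limma with Benjamini-Hochberg adjustment over all genes tested).

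**Figure D1:**
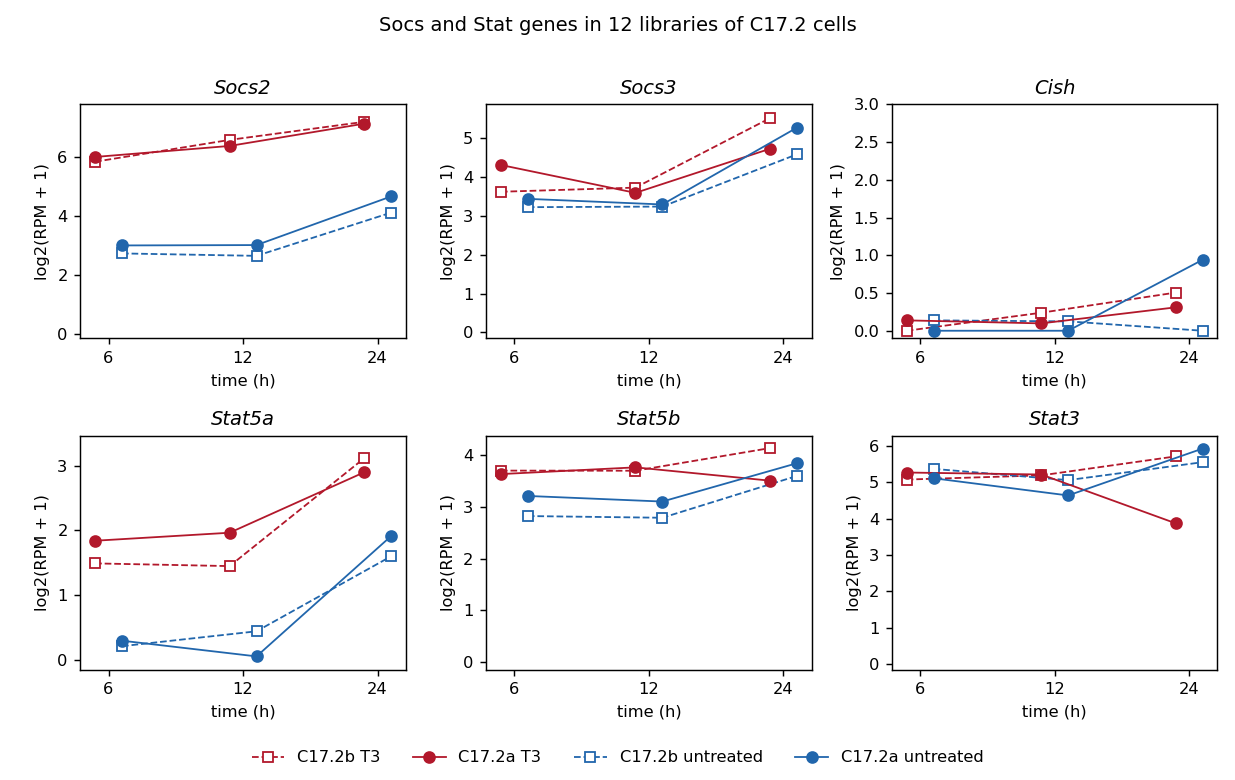
Level of the 6 genes in each of the 12 libraries as log2(RPM + 1), against the time after the start of treatment in hours. Red is T3, blue is untreated, squares with dashed lines are C17.2b and circles with solid lines are C17.2a; an N/A is drawn as 0, and the vertical scale differs between genes. Socs2 under T3 lies above every untreated library, Stat5a under T3 lies above the untreated library of its own line and time, and the C17.2a T3 library at 24 h is the low point of Stat3 at 13.60 RPM.

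In order of level, Socs2 was highest in both T3 libraries at 24 h, then in those at 12 h and at 6 h, followed by the untreated libraries at 24 h and, at 7.11 RPM or less, the other 4. C17.2b was the higher line under T3 at 12 h and 24 h and the lower one in the other cases, and with 1 library per condition neighbours in this order could not be tested against each other. The T3 response of Socs2 was 3.38 ± 0.23 in C17.2b (adjusted p = 0.000351) and 2.95 ± 0.23 in C17.2a (adjusted p = 0.00125), as log2 differences with their SE from limma. The difference between the lines was 0.43 with a 95% interval from -0.32 to 1.18 (adjusted p = 0.722, limma), so it was not resolved. By time, the response was 3.06 at 6 h (adjusted p = 0.0112), 3.66 at 12 h (adjusted p = 0.00342) and 2.78 at 24 h (adjusted p = 0.00609) in limma, where both lines serve as the repeats of a time. Without the C17.2a 24 h pair the 24 h response was 3.09 (adjusted p = 4.97e-05, limma), with the lone C17.2b pair assumed to vary like the others. The 24 h response minus the 6 h response was -0.28 with an interval from -1.08 to 0.51 (adjusted p = 0.8, limma). The calls at 6 h and at 12 h each lost significance in 4 of the 6 fits that left out a pair, namely those without either 6 h or either 12 h pair, and the 24 h call did so without either 6 h pair; the value itself stayed between 2.47 and 3.94 in these fits.

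Stat5a, the STAT first described in prolactin signalling, was the other gene of the 6 that rose with T3. With T3 for 6, 12 and 24 h, Stat5a stood at 1.81, 1.73 and 7.64 RPM in C17.2b and at 2.58, 2.90 and 6.44 RPM in C17.2a. Untreated cells had 0.16, 0.36 and 2.03 RPM in C17.2b and 0.23, 0.04 and 2.76 RPM in C17.2a. The untreated values at 6 h and 12 h correspond to at most 4 tags, and the groups overlapped over all times because the untreated 24 h libraries lay among the T3 libraries of 6 h and 12 h. Within every pair the T3 library was higher, which held for 8.06% of genes tested. Stat5a passed the filter of 1 RPM in 3 libraries only through its 6 T3 libraries, since 2 untreated ones reached that level and would not have sufficed. The response over the 6 pairs was 1.37 ± 0.16 on the log2(RPM + 1) scale (SE, n = 6 pairs; adjusted p = 0.00149 in limma), and at 24 h, where both libraries of a pair had more than 10 tags, the RPM ratio of T3 over untreated was 3.76 in C17.2b and 2.33 in C17.2a.

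Stat5a responded by 1.26 ± 0.23 in C17.2b (adjusted p = 0.0244) and by 1.48 ± 0.23 in C17.2a (adjusted p = 0.023) as a log2 difference in limma, and the difference between lines was -0.21 with an interval from -0.96 to 0.54 (adjusted p = 0.823). Both line calls were near the threshold, and Stat5a was open to the tests of this paragraph only through its T3 libraries. Among the fits that left out a pair, the C17.2a call was kept only without the C17.2a 24 h pair. The C17.2b call was kept only without the C17.2a 12 h or the C17.2a 24 h pair. The adjusted p reached 0.214 in C17.2b without its 24 h pair and 0.216 in C17.2a when that line was fitted alone, with the direction kept. At single times Stat5a differed by 1.41 at 6 h, 1.46 at 12 h and 1.25 at 24 h, with adjusted p-values of 0.194, 0.151 and 0.142 in limma, so none of these passed with all 6 pairs. Without the C17.2a 24 h pair the differences of Stat5a at 6 h and 12 h stayed at 1.41 and 1.46 and passed (adjusted p = 0.00739 and 0.00583, limma). In that fit 3.77% and 4.54% of all genes were called higher, against 0.113% and 0.359% with all pairs. At 24 h the lone C17.2b pair gave 1.51. With all 6 pairs but no pair block, the differences at 12 h and 24 h passed (adjusted p = 0.0425 and 0.0499, limma) and that at 6 h did not (adjusted p = 0.0565).

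Stat5b, the paralog that carries most growth hormone signalling in liver, lay higher with T3 in 5 of 6 pairs without passing the test. With T3 for 6, 12 and 24 h there were 12.02, 12.00 and 16.61 RPM of Stat5b in C17.2b and 11.43, 12.60 and 10.38 RPM in C17.2a, against 6.08, 5.92 and 11.12 RPM in untreated C17.2b and 8.27, 7.60 and 13.37 RPM in untreated C17.2a. The groups overlapped through the 24 h libraries, since the C17.2a T3 library was the lowest T3 library at 24 h and its untreated partner the highest untreated one. Over the 6 pairs the difference was 0.51 ± 0.17 on the log2 scale (adjusted p = 0.146, limma). Without the C17.2a 24 h pair Stat5b was higher by 0.68 (adjusted p = 0.00191, limma), and the adjusted p of C17.2b was 0.131 in the fit of both lines and 0.0105 in that line alone. The difference of the response between the lines was 0.53, with an interval from -0.20 to 1.25 (adjusted p = 0.722, limma).

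The share of Stat5a beside Stat5b was higher with T3 within every pair, but untreated Stat5a at 6 h and 12 h was near the floor. In both lines these values correspond to at most 4 tags and lie under the 1 RPM added below. Stat5a also passed the filter only through its T3 libraries. The share of Stat5a in the summed RPM of both genes was 13.1%, 12.6% and 31.5% with T3 in C17.2b at 6, 12 and 24 h, and 18.4%, 18.7% and 38.3% in C17.2a. In untreated cells it was 2.56%, 5.73% and 15.4% in C17.2b and 2.71%, 0.524% and 17.1% in C17.2a. The size of a share depends on how the tags of each gene were counted, so only its difference between T3 and untreated cells is read. The mean log2 ratio of Stat5a to Stat5b, with 1 RPM added to each, was -1.62 with T3 and -2.48 in untreated cells. The difference of 0.86 ± 0.50 (SD, n = 6 pairs) had an exact two-sided sign-flip p of 0.0312, the smallest p that 6 pairs allow. With 5 RPM added to each gene the difference was 0.18 and the exact p was 0.344, so the result depends on the value added. Both genes lie side by side on chromosome 11 with Stat3 in RefSeq, and the rule that assigned tags to these paralogs is not given in the sources used here, so a tag shared between them could sit with either.

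**Figure D2:**
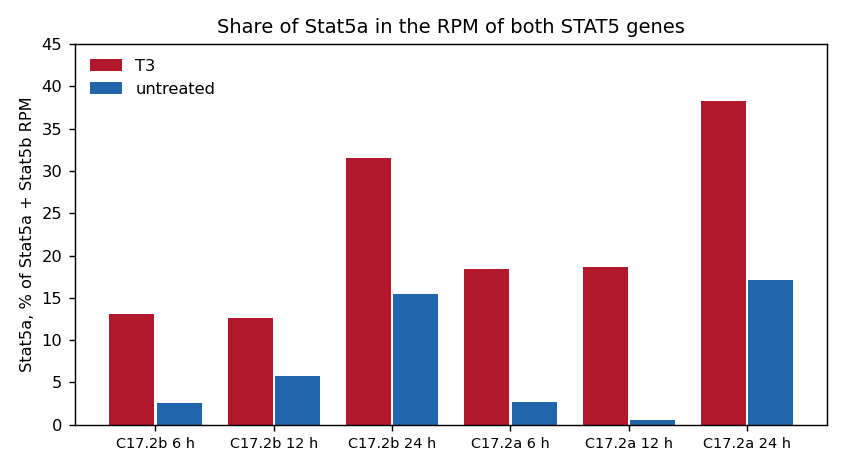
Stat5a as a percentage of the RPM of Stat5a and Stat5b together in each of the 12 libraries, 1 bar per library, T3 in red beside untreated in blue for each line and time. The T3 bar is the taller one in all 6 pairs, and the 24 h libraries have the highest shares of their line and treatment, 31.5% and 38.3% with T3 in C17.2b and C17.2a. The untreated bars at 6 h and 12 h rest on at most 4 tags of Stat5a.

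Socs3, the inhibitor of IL-6 family signalling and a known STAT3 target, also lay higher with T3 in 5 of 6 pairs and did not pass the test. C17.2b cells had 11.28, 12.22 and 44.57 RPM of Socs3 with T3 for 6, 12 and 24 h, against 8.33, 8.43 and 22.92 RPM untreated. C17.2a cells had 18.79, 11.04 and 25.41 RPM with T3, against 9.82, 8.79 and 37.46 RPM untreated. The groups overlapped, and the 24 h libraries of both groups were above all those of 6 h and 12 h. Over the 6 pairs the difference was 0.41 ± 0.19 on the log2 scale (adjusted p = 0.306, limma), against 0.60 (adjusted p = 0.00638) without the C17.2a 24 h pair. In C17.2b the difference was 0.60 ± 0.26, with an adjusted p of 0.385 in the fit of both lines and of 0.0322 in that line alone. Between the lines the responses differed by 0.40 with an interval from -0.46 to 1.25 (adjusted p = 0.745, limma).

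Cish, like Socs2 a known STAT5 target and inhibitor, was at or near the floor. With T3 for 6, 12 and 24 h Cish was listed as N/A, at 0.18 and at 0.42 RPM in C17.2b and at 0.10, 0.07 and 0.24 RPM in C17.2a. Untreated cells had 0.10 RPM, 0.09 RPM and N/A in C17.2b and N/A, N/A and 0.92 RPM in C17.2a. Only the untreated C17.2a library at 24 h exceeded 3 tags, with an implied 9.01 tags. A difference with T3 was not detectable at this depth, and Cish was the 1 gene of the 6 that did not pass the filter and was not tested.

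Stat3, which relays LIF and IL-6 family signals, did not differ with T3 beyond the spread between pairs. With T3 there were 32.56, 35.34 and 51.16 RPM of Stat3 in C17.2b and 37.37, 35.95 and 13.60 RPM in C17.2a, against 40.12, 32.20 and 45.71 RPM in untreated C17.2b and 33.40, 23.81 and 59.51 RPM in untreated C17.2a. The highest and lowest libraries of the whole set were the 2 C17.2a libraries at 24 h, and the other 10 overlapped. Over the 6 pairs the difference was -0.22 ± 0.30 on the log2 scale (adjusted p = 0.77, limma), and without the C17.2a 24 h pair it was 0.15 (adjusted p = 0.456). In that same T3 library Thra, the gene of the alpha receptor, was listed at 0.12 RPM, against 2.34 to 4.63 RPM in the other T3 libraries and 2.04 to 5.83 RPM in untreated ones.

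**Figure D3:**
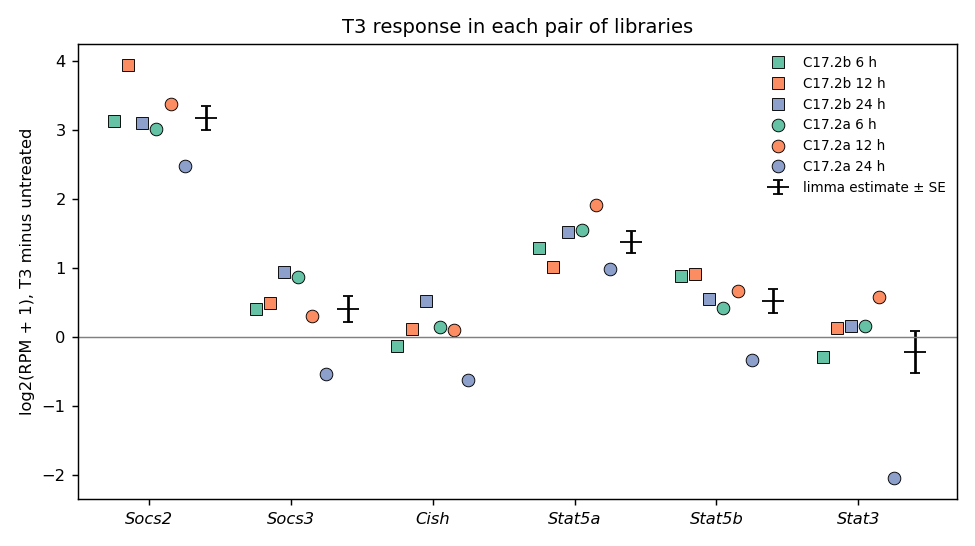
Difference of log2(RPM + 1), T3 minus untreated, for each of the 6 genes and each of the 6 pairs; squares are C17.2b, circles are C17.2a, colours are the times, and the black bar is the limma estimate with its SE over the 6 pairs. All 6 points of Socs2 lie between 2.47 and 3.94 and all 6 of Stat5a between 0.98 and 1.91, while the C17.2a 24 h point is the lowest of every gene, at -2.05 for Stat3. Cish has no estimate because it was not tested.

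Counted over the genes, 2 of the 5 tested rose with T3 over the 6 pairs, Socs2 and Stat5a, and 0 fell, against 4.09% of all genes tested called higher and 2.35% called lower. Of these, Stat5a was tested only because its T3 libraries passed the filter. The median difference of the 5 was 0.51, beside -0.01 over all 10577 genes. The genes were chosen with earlier results of these data known, so the median and the counts describe the set and do not test it. Without the C17.2a 24 h pair 4 of the 5 were called higher, Stat3 being the exception, and the share of all genes called higher was 9.14% in that fit. Without both 24 h pairs the same 4 were called, beside 7.89% of all genes. In C17.2b the genes called were the same 2 of 5, beside 2.25% of all genes called higher (4 of 5 with that line fitted alone, beside 7.18%). In C17.2a they were again the same 2, beside 0.908%. With C17.2a fitted alone only Socs2 was called, beside 11 of 10141 genes called higher. At 6, 12 and 24 h 1 of 5 was called each time, Socs2, beside 0.113%, 0.359% and 0.681% of all genes called higher. Without the C17.2a 24 h pair 2, 3 and 2 were called at these times, beside 3.77%, 4.54% and 3.97% of all genes. With all 6 pairs, 0 of the 5 had a T3 response that differed between C17.2b and C17.2a, or between 24 h and 6 h, in limma. Over all genes 0% passed in either of these comparisons, with 583 and 593 genes at an unadjusted p under 0.05. The values for 24 h minus 6 h depended on the 24 h pair kept. With the lone C17.2a 24 h pair they were -1.18 for Socs3, -1.98 for Stat3 and -0.99 for Stat5b. With the lone C17.2b 24 h pair they were 0.30, 0.23 and -0.11.

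Without hormone, Socs2 and Socs3 rose between 6 h and 24 h of culture. As a ratio of RPM, the 24 h level of Socs2 over its 6 h level was 2.59 in C17.2b and 2.21 in C17.2a under T3, and 2.9 in untreated C17.2b and 3.48 in untreated C17.2a. For Socs3 the same ratio was 3.95 in C17.2b and 1.35 in C17.2a under T3, and 2.75 in untreated C17.2b and 3.81 in untreated C17.2a. On the log2 scale untreated Socs2 differed by 1.53 ± 0.21 between 24 h and 6 h (adjusted p = 0.000274) and Socs3 by 1.59 ± 0.22 (adjusted p = 0.000262) in limma. The untreated libraries differed in their whole distribution between these times: 43% of the 10192 genes tested were called higher at 24 h and 13.1% lower, with a median difference of 0.40 over all genes, which median-ratio scaling of the libraries moved to -0.02 with 2495 genes higher and 2685 lower. Under that scaling Socs2 was still higher by 1.09 (adjusted p = 0.00239) and Socs3 by 1.15 (adjusted p = 0.00212) in limma. Stat5b was called as deposited, at 0.70 (adjusted p = 0.0168), and not under median-ratio scaling, at 0.28 (adjusted p = 0.269). Stat3 was at 0.50 (adjusted p = 0.0583, limma), and Stat5a was not tested there because only 2 untreated libraries reached 1 RPM.

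Between the untreated lines 0 of the 4 genes tested differed, beside 8.85% of all genes called in either direction and 2319 at an unadjusted p under 0.05 in limma. Untreated C17.2b minus untreated C17.2a was -0.40 ± 0.17 for Socs2 (adjusted p = 0.204), -0.32 for Socs3 (adjusted p = 0.332), -0.32 for Stat5b (adjusted p = 0.317) and 0.10 for Stat3 (adjusted p = 0.778), as log2 differences in limma. Socs2 had the lower level in C17.2b at all 3 times, at 5.66, 5.29 and 16.41 RPM, against 7.04, 7.11 and 24.50 RPM in C17.2a.

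Across the 12 libraries the level of Socs2 on the log2(RPM + 1) scale had a Pearson correlation of 0.90 with Stat5a, 0.83 with Stat5b, 0.57 with Socs3 and -0.10 with Stat3. These libraries share their treatment groups, lines and times, so the values describe likeness only. Among all genes tested, the 5 most like Socs2 were Epas1 (0.985), Igfbpl1 (0.976), Greb1 (0.968), Abhd15 (0.963) and Slc1a5 (0.959). Epas1, which encodes the hypoxia-inducible factor HIF-2 alpha, ranged from 48.41 to 193.44 RPM with T3 and from 1.89 to 8.47 RPM in untreated cells, so its groups did not overlap either. Igfbpl1 ranged from 1.06 to 1.68 RPM with T3 and from 0 to 0.71 RPM in untreated cells, so it passed the filter through its T3 libraries alone. For Stat5a the 3 most alike were Plcl1 (0.972), Zfp488 (0.967) and Atp2b3 (0.967), whose T3 and untreated ranges overlapped. No likeness is given for Cish, which exceeded 3 tags in 1 library only.

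Other genes of the pathway were counted in the same way. A list of 83 further genes held ligands, receptors, kinases, other STATs, inhibitors and targets, of which 69 were in the table and 62 were tested. Of the 62, 5 were called higher and 2 lower over the 6 pairs in limma, beside the 4.09% and 2.35% of all genes, and their median difference was 0.08 beside -0.01 for all genes. The single lists are small, so their counts below are not read as results about a list.

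Among the ligands 1 of 6 tested rose and 1 fell, beside 4.09% of all genes called higher and 2.35% lower. Il15, a cytokine that signals through STAT5, was higher by 0.72 ± 0.14 (adjusted p = 0.0182, limma), with 0.74 to 4.29 RPM under T3 and 0.09 to 1.43 RPM in untreated cells. It reached 1 RPM in C17.2a only, at 2.09, 2.05 and 4.29 RPM with T3 and 0.93, 1.42 and 1.43 RPM untreated. Its untreated libraries alone would not have passed the filter. In C17.2b it had 0.74, 0.97 and 0.98 RPM with T3 and 0.21, 0.09 and 0.14 RPM untreated, the latter at or near the floor. Cntf, a neurotrophic cytokine that signals through STAT3, fell by 0.58 on the log2 scale (SE 0.11, adjusted p = 0.0131, limma), with 10.91 to 35.70 RPM under T3 and 16.33 to 50.36 RPM in untreated cells. Both ranges overlapped. Il15 was higher in all 6 pairs, a pattern found in 8.06% of genes tested. Cntf was lower in all 6 pairs, and the share of all genes with that pattern was not counted. Leaving out 1 pair ended the call of Il15 in 4 of 6 cases, with an adjusted p of up to 0.0817, and that of Cntf in 2 of 6, with up to 0.0624. Igf1, the growth factor through which growth hormone acts on many tissues, differed by -0.71 ± 0.18, lower in all 6 pairs, and just missed the threshold (adjusted p = 0.0511, limma), passing it in 6 alternatives, as under median-ratio scaling (adjusted p = 0.0327).

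Of 16 receptor genes tested 1 rose and 0 fell, beside 4.09% and 2.35% of all genes. Il10rb, a receptor chain shared by the IL-10 family, had 46.29, 71.03 and 92.37 RPM with T3 in C17.2b and 57.05, 59.03 and 97.69 RPM in C17.2a at 6, 12 and 24 h. Untreated cells had 27.66, 31.30 and 37.30 RPM in C17.2b and 28.22, 25.14 and 51.65 RPM in C17.2a. Only the untreated C17.2a library at 24 h reached into the range of the T3 libraries, and the difference was 1.04 ± 0.10 on the log2 scale (adjusted p = 0.000683, limma). The growth hormone receptor Ghr was at 0.20 (adjusted p = 0.526), the shared IL-6 family chain Il6st at 0.14 (adjusted p = 0.557) and the LIF receptor Lifr at 0.36 (adjusted p = 0.156) in limma.

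None of the 4 kinases tested was called, with Jak1 at 0.28 (adjusted p = 0.139), Jak2 at 0.22 (adjusted p = 0.559) and Tyk2 at -0.21 (adjusted p = 0.633) as log2 differences in limma. Of 2 other STATs tested 1 rose, beside 4.09% of all genes called higher. Stat6, which carries IL-4 signals, was higher by 0.43 ± 0.09 (adjusted p = 0.0223, limma), with 183.23 to 273.75 RPM under T3 and 162.78 to 197.90 RPM in untreated cells. That call was lost in 4 of the 6 fits that left out a pair, with an adjusted p of up to 0.0985. Of 13 other inhibitors 0 were called: the related Socs1, Socs6 and Socs7 differed by -0.07, 0.12 and 0.16, with adjusted p-values of 0.82, 0.688 and 0.525 in limma.

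Of 12 genes listed as STAT5 targets 1 rose and 1 fell, beside 4.09% and 2.35% of all genes. The oxytocin receptor gene Oxtr was higher by 0.58 ± 0.10 (adjusted p = 0.00909), and leaving out the 12 h pair of C17.2b ended that call (adjusted p = 0.0531), in limma. Ccnd1, which encodes cyclin D1 and drives cells into S phase, fell by 1.39 on the log2 scale (SE 0.14, adjusted p = 0.000624, limma). With T3 for 6, 12 and 24 h it stood at 86.40, 67.84 and 90.27 RPM in C17.2b and 108.83, 70.70 and 104.49 RPM in C17.2a, against 186.52, 227.98 and 299.09 RPM in untreated C17.2b and 190.28, 217.55 and 275.38 RPM in untreated C17.2a. The T3 libraries all lay below the untreated ones. The share of all genes with this pattern was not counted, so it is not read as particular to Ccnd1. Of 14 genes listed as STAT3 targets 1 rose, beside 4.09% of all genes called higher. Hif1a, which encodes the oxygen-regulated factor HIF-1 alpha, was higher by 0.70 ± 0.10 (adjusted p = 0.00467, limma), and by 0.61 without the C17.2a 24 h pair (adjusted p = 0.000224).

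**Figure D4:**
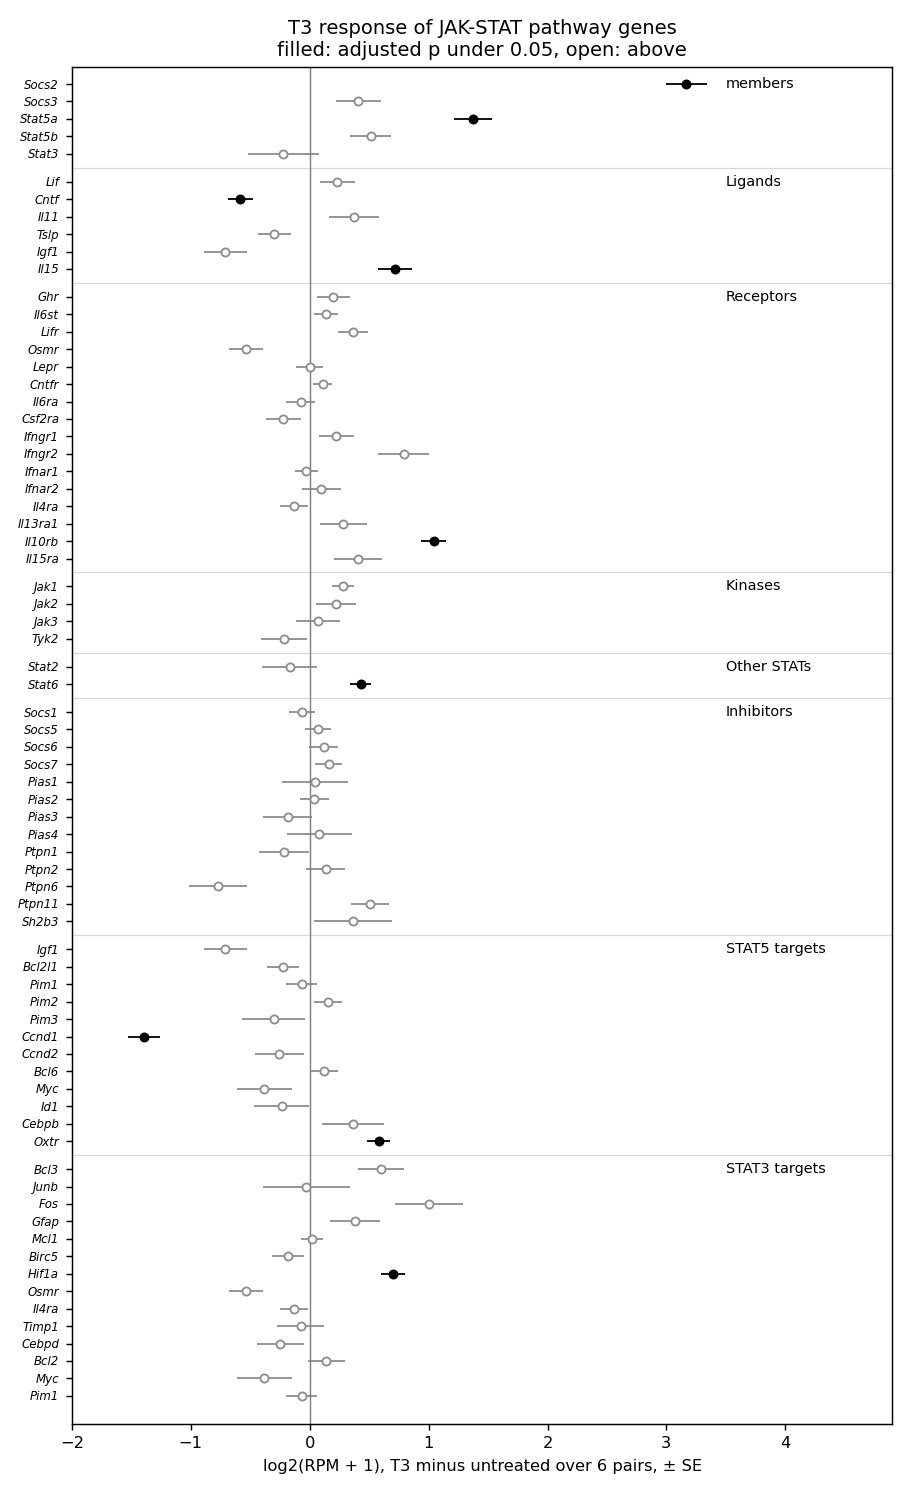
T3 minus untreated over the 6 pairs on the log2(RPM + 1) scale with its SE, for the 5 tested genes of the STAT5 set at the top and for the tested genes of the 7 pathway lists below; filled points have an adjusted p under 0.05 in limma. A gene in 2 lists is drawn in both. Socs2 at 3.17 and Stat5a at 1.37 lie to the right of every other point, and 7 of the 62 other genes are filled, with Ccnd1 the lowest at -1.39.

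In untreated cells 25 of 59 tested genes of the pathway were higher at 24 h than at 6 h and 10 were lower, beside the 43% and 13.1% of all genes given above, with a median of 0.31 beside 0.40 for all genes. Between the untreated lines 4 of the 59 were higher in C17.2b and 7 were lower, beside 2.93% and 5.92% of all genes.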

How the data were processed

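The authors deposited 1 table of 12774 gene symbols by 12 libraries whose values are RPM, read from the column sums since no header names the unit. PolyA RNA was reverse-transcribed per the labels' protocols, and genome build mm9 is named per the submitters' processing notes. How tags were aligned, assigned to genes and filtered is not given in the sources used here. Between 88.3% and 92.7% of low values were whole multiples of a library's step (tolerance 0.0055 RPM), so tag counts were not recovered and no count test was run. N/A was read as 0.

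The tests covered genes that reached 1 RPM in 3 or more of the libraries fitted, on log2(RPM + 1), with limma 3.58.1 in R 4.3.3 (lmFit, eBayes with trend, Benjamini-Hochberg adjustment over all genes tested, threshold 0.05), with the 6 T3 and untreated pairs as blocks. Untreated lines were compared with time as a term, and times with line as a term. The scripts were tested on simulated data. The named genes are the 6 chosen by symbol, 11 always named from the pathway lists, up to 4 called genes per list with the smallest p, and the genes most alike in level. The genes and lists were chosen with earlier results of these data known, and 1 further listed gene is not reported here. Alternatives were pseudocounts of 0.5 and 5 RPM, no filter or 5 RPM, median-ratio scaling, no pair block, each line alone, all 12 libraries with a T3 term for the untreated comparisons, leaving out each pair, and, chosen after seeing the data, leaving out both 24 h pairs.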

Additional observations from a re-analysis of the deposited data

Results flagged for a closer look

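Over the 6 pairs, the gap rule for a value far from the rest was applied to 22 genes, and chance flags about 1 in 20. It picked 4 values, of which 3 came from the C17.2a 24 h pair: T3 minus untreated on the log2(RPM + 1) scale was -2.05 for Stat3, against -0.29 to 0.57 in the other pairs, 1.15 for Hif1a, against 0.53 to 0.70, and -1.25 for Tyk2, against -0.14 to 0.15. The other was Socs7 in the C17.2a 6 h pair, at -0.27 against 0.14 to 0.36.

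Some responses had opposite signs in every pair of 2 groups, a pattern whose difference was not tested by that rule. Socs6 was below 0 in all 3 C17.2b pairs (-0.10, -0.02 and -0.01) and above 0 in all 3 C17.2a pairs (0.10, 0.21 and 0.53), a difference of means of -0.32 whose adjusted p in limma was 0.722. Tyk2 was below 0 at 24 h and at 12 h and above 0 at 6 h in both lines, its mean at 24 h differing by -0.74 and that at 12 h by -0.16 from the mean at 6 h.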

How the results depend on the processing

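Socs2 stayed higher with T3 under all 13 alternatives of the fit over 6 pairs, at 2.72 to 3.36 on the log2 scale (adjusted p 1.2e-07 to 0.000733, limma). The 2 genes called over 6 pairs became 1 with a filter at 5 RPM, by which Stat5a was no longer tested, and 4 without both 24 h pairs, Socs3 and Stat5b joining while the share of all genes called higher was 7.89%, against 4.09% with all pairs. Those called in C17.2a became 1 with that line alone, with the 5 RPM filter and with 5 RPM added, beside 11, 88 and 75 of all genes called higher. Those in C17.2b became 1 with the 5 RPM filter, beside 211 of all genes, and 4 with that line alone, beside 730. Without the pair block the fit called 2 at 12 h and 2 at 24 h, beside 101 and 173 of all 10577 genes called higher. Leaving out 1 pair in turn gave 2 to 4 genes over 6 pairs, 1 to 2 in C17.2a and 1 to 4 in C17.2b, all higher with T3. Of 10348 to 10543 genes tested, 206 to 950, 23 to 291 and 32 to 789 were called higher there. Leaving out a pair of another time gave 0 to 2 genes at 6 h, 0 to 3 at 12 h and 0 to 1 at 24 h. Over all genes 3 to 392, 2 to 472 and 0 to 21 were called higher. Without the C17.2b 24 h pair, the lone C17.2a pair at 24 h gave -2.05 for Stat3. The 24 h minus 6 h difference was then -1.18 for Socs3, -1.98 for Stat3 and -0.99 for Stat5b. The 3 genes called between untreated 24 h and 6 h ranged from 2 to 4 by setting. The T3 minus untreated difference of the Stat5a to Stat5b log2 ratio was 0.18 with 5 RPM added. The cause was not tested in any of these cases other than the filter.

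Signs reversed as follows, and the values with the reversed sign did not pass the test. With 5 RPM added, the response at 24 h minus 6 h was 0.042 for Socs2 and 0.24 for Stat5a. Without both 24 h pairs, the difference between lines was -0.14 for Socs3 and -0.45 for Stat3, Stat3 was 0.14 over all pairs and 0.37 in C17.2a, and Ghr, Jak2 and Tyk2 were -0.0060, -0.048 and 0.0028. Leaving out 1 pair or time gave, for 24 h minus 6 h, -0.59 to 0.025 for Socs2, -1.18 to 0.30 for Socs3, -1.98 to 0.23 for Stat3 and -0.42 to 0.10 for Stat5a. For single times it gave -0.54 to 0.93 for Socs3 at 24 h, -0.29 to 0.16 and -2.05 to 0.16 for Stat3 at 6 h and 24 h, and -0.34 to 0.54 for Stat5b at 24 h. By line it gave -0.12 to 0.58 for Socs3 and -0.95 to 0.37 for Stat3 in C17.2a, -0.081 to 0.14 for Stat3 in C17.2b, and for C17.2b minus C17.2a -0.37 to 0.95 for Stat3, -0.46 to 0.0015 for Stat5a and, untreated, -0.058 to 0.34 for Stat3. Over all pairs it gave -0.38 to 0.15 for Stat3 and -0.11 to 0.0080 for Socs1.

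Each group is 1 library, so the spread is that among lines and times. Values under 0.42 RPM rest on 3 tags or fewer in the shallowest library. The T3 response in C17.2b minus C17.2a had a median of 0.13 over all genes as deposited and of -0.004 under median-ratio scaling. Without each line in turn, the untreated 24 h minus 6 h difference was 1.39 to 1.67 for Socs2, as values with no test because no residual degrees of freedom remain.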
